A study of Mus musculus with 5 samples.

Results

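The cytosolic ribosomal protein genes encode the proteins of the large (Rpl) and small (Rps) subunits of the cytosolic ribosome. Members were taken by symbol: Rpl or Rps with a number and at most 1 trailing letter, Rplp0 to Rplp2, and Rpsa. By that rule 81 of the 22980 genes in the deposited tables were members, 49 of the large and 32 of the small subunit, and 79 of them were in both tables. Rps4l was only in the healthy table and Rpl39l only in the UUO table. Members whose symbols do not match the rule, such as Fau and Rps3a1, were not counted, and Rpl13 was not analysed here.

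Mouse kidney had been profiled by single cell or single nucleus RNA-seq, with a single library for each of 5 groups. Nuclei made with the 10x Chromium system came from kidney at day 14 of unilateral ureteral obstruction (UUO), a surgical blockage of 1 ureter that injures and scars the kidney. From healthy kidney there was 1 Drop-seq library of whole cells, dissociated from the kidney of a C57BL/6 mouse, and 3 nucleus libraries, from the sNucDrop-seq, DroNc-seq and 10x Chromium methods. Cell classes are those of the authors' deposited annotation, with segment and state labels of 1 tubule segment joined. The labels give neither age nor sex, nor how many animals a library came from.

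Each cytosolic ribosome holds 1 copy of most of these proteins, and nearly all cells make their mRNAs in large amounts. In mammals many of these mRNAs begin with a C followed by a run of pyrimidines, the 5′ terminal oligopyrimidine (TOP) motif, through which mTOR and Larp1 regulate their translation. Most of the mature mRNA sits in the cytoplasm, while many of the genes carry small nucleolar RNAs (snoRNAs) in their introns, which are processed in the nucleus.

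The sequence around the start of transcription is shown for 6 members that departed from the family in the comparisons described further on, and then for Rpl13a and Rpl14, which were among the members with the most UMIs and did not depart. Rpl23a and Rpl36, which also departed, are not shown. Rpl10a and Rps27l each have a further start in the table, and the more upstream one is given. Each line holds 30 bases, 15 either side of the RefSeq start (build GRCm38.p6), 5′ to 3′ on the gene's strand, with the longest run of pyrimidines in capitals.
Rpl10a: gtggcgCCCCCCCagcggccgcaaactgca
Rpl35: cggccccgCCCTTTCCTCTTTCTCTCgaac
Rpl28: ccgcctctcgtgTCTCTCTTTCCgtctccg
Rpl41: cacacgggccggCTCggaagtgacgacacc
Rplp0: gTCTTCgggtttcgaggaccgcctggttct
Rps27l: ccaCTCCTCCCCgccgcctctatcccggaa
Rpl13a: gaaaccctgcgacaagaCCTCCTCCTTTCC
Rpl14: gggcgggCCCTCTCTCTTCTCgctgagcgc
A run of at least 8 pyrimidines, counted on the gene's strand within 20 bases either side of a start, was present for 28 of the 59 members with a RefSeq start in the table, or 47.5%, against 18.4% of all 27025 genes of the table. The window from 250 bases before to 50 after the start, read on both strands, held CCGGAAG, a core of sites bound by ETS factors, for 42.4% of members and 9.93% of all genes. In the same windows AAGATGG, a core of YY1 sites, was found for 15.3% of members and 7.28% of all genes. These matches describe letters and not binding, and among the departing members both long and short runs occur. A run counted here may lie wholly before the start, as the run marked for Rpl10a does, so this is not a count of TOP motifs.

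UUO nuclei held 7411036 UMIs and Drop-seq cells 6872118, against 4630236, 5864130 and 2947137 in sNucDrop-seq, DroNc-seq and healthy 10x nuclei, with medians of 1055 to 1630 UMIs per barcode. UUO and healthy 10x nuclei shared 23 barcode sequences and Drop-seq and sNucDrop-seq 1, and no other pair shared any. Levels are CPM, the UMIs of a gene per 1000000 UMIs of the barcodes summed. Xist was at 0.405 CPM in UUO nuclei and at 0 in Drop-seq and sNucDrop-seq, against 1309 CPM in DroNc-seq and 1321 CPM in healthy 10x nuclei, so the libraries did not come from animals alike in sex-linked transcripts. All 6 proximal tubule markers had counts in the proximal tubule class of each library, at a summed 925 CPM in UUO nuclei and 4368 CPM in Drop-seq cells, against 9231, 10616 and 13058 for sNucDrop-seq, DroNc-seq and healthy 10x nuclei. In endothelium the same markers summed to 130 CPM in UUO nuclei and 3127 CPM in Drop-seq cells, against 4544, 5299 and 1607 CPM. Transcripts of proximal tubule were thus counted in another class, and their part in the values by class was not tested. With 1 library per group, no difference has a replicate check and no test was made. Every interval is an exact 95% interval that covers counting error only.

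Ribosomal protein genes took a share of UMIs several times larger in whole cells than in nuclei, and among nuclei the largest share in UUO. Over all barcodes the share was 0.675% in UUO nuclei (interval 0.669 to 0.681) and 2.21% in Drop-seq cells (2.2 to 2.22). Against these stood 0.498% for sNucDrop-seq (0.492 to 0.504), 0.253% for DroNc-seq nuclei (0.248 to 0.257) and 0.272% for healthy 10x nuclei (0.267 to 0.278). The 3 healthy nucleus libraries thus differed among themselves too, with sNucDrop-seq above both others. The median barcode held 7 family UMIs in UUO nuclei and 36 in Drop-seq cells, against 6, 4 and 3 in sNucDrop-seq, DroNc-seq and healthy 10x nuclei. Mitochondrially encoded transcripts, which lie outside the nucleus, were 0.0271% of UMIs in UUO nuclei and 24.3% in Drop-seq cells, against 0.244%, 0.13% and 0.0391% in those 3 libraries. Malat1, a nuclear RNA, was 9.17% in UUO nuclei and 0.995% in Drop-seq cells, against 10.8%, 15.3% and 8.36%. UUO nuclei thus had the largest family share of the 4 nucleus libraries and the lowest mitochondrial share, and the part of cytoplasmic RNA in either was not tested.

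No single member set the family's total. The 10 members with the most UMIs made up 24.9% of the family in UUO nuclei and 22.6% in Drop-seq cells, against 23.4%, 23.5% and 25.6% in sNucDrop-seq, DroNc-seq and healthy 10x nuclei. The leading member was Rpl41, the shortest ribosomal protein, in UUO nuclei (4.27% of the family), in sNucDrop-seq (3.27%) and in healthy 10x nuclei (4.82%). It was Rpl14 in Drop-seq cells (2.59%) and Rpl13a in DroNc-seq nuclei (2.93%).

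Classes of 1 healthy library differed less from one another than whole cells differed from healthy nuclei of the same class, but in nuclei they differed about as much as the healthy nucleus libraries did. In whole cells the classes with at least 20 barcodes ran from 1.85% in connecting tubule to 2.68% in macrophages, with 2.22% in proximal tubule, the first segment of the nephron. In sNucDrop-seq nuclei the share was 0.397% in distal convoluted tubule and 0.768% in endothelium. In DroNc-seq nuclei it was 0.196% in distal convoluted tubule and 0.498% in macrophages, and in healthy 10x nuclei 0.248% in proximal tubule and 0.477% in endothelium. Endothelium was therefore above every tubule class in each healthy nucleus library, and the distal convoluted tubule was the lowest class in sNucDrop-seq and DroNc-seq.

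In UUO nuclei the share ran from 0.529% in proximal tubule to 1.38% in macrophages (1.29 to 1.48). The label Fib.1 stood at 0.921% (0.886 to 0.957) and Fib.2 at 0.539% (0.498 to 0.583), with no overlap of their intervals. Within the UUO proximal tubule, nuclei labelled Dediff. PT had 0.441% (0.412 to 0.471) and those labelled Prolif. PT 0.551% (0.52 to 0.583), against 0.537% (0.528 to 0.548) in S2 nuclei. Dediff. PT nuclei were thus at 0.821 times the S2 share, while the interval of Prolif. PT nuclei overlapped that of S2. Depth moved with these shares: the median barcode held 326 UMIs in UUO macrophages, 530 in endothelium, 514 in Fib.1 and 1339 in Fib.2, against 1412 in proximal tubule. Within the proximal tubule it held 1526 UMIs in Dediff. PT and 2410 in Prolif. PT, against 1372 in S2. These labels were not compared at like depth. Over barcodes of at least 1000 UMIs the UUO share was 0.496% in proximal tubule, 0.679% in endothelium, 0.545% in Fib.1 and 0.509% in Fib.2, and too few such macrophages were left. The classes of shallow barcodes thus stood much closer to the proximal tubule there, and the gap between Fib.1 and Fib.2 was mostly gone.

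**Figure D1:**
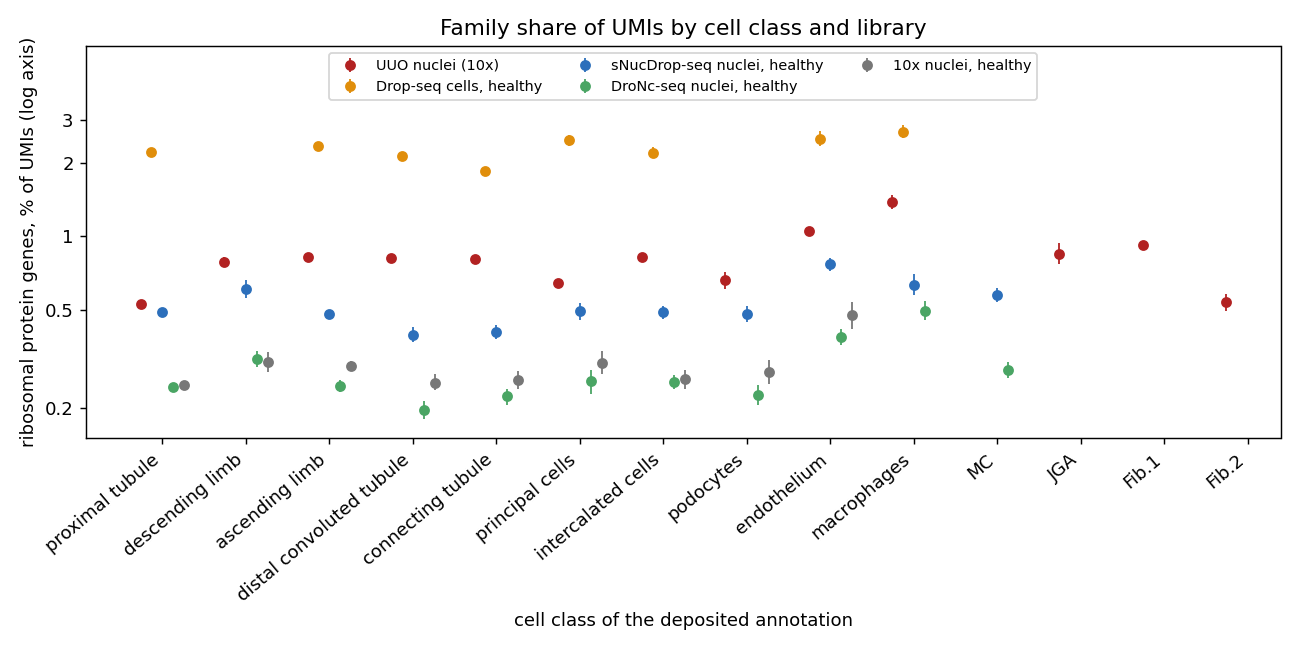
Share of UMIs in ribosomal protein genes (vertical log axis, percent) for each cell class with at least 20 barcodes (horizontal axis), by library, with exact 95% counting intervals. Drop-seq cells lie between 1.85% and 2.68%, and among nuclei UUO is the highest in each class where it can be set beside the healthy libraries, with all barcodes used.

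Whole cells were set against each healthy nucleus library within the proximal tubule to see which members follow the family. Nearly every member was higher in cells. Of 79 members measured against sNucDrop-seq, 75 were at least 2-fold higher in Drop-seq cells, where 17.9% of all measured genes were. Against DroNc-seq it was 76 of 77 members (19.7% of all genes) and against healthy 10x nuclei 76 of 77 (21.6% of all genes). To be measured, a gene had to have a count somewhere in each library and at least 20 counts over both proximal tubule sums. The median log2 ratio of the members, Drop-seq over nuclei, was 2.13 against sNucDrop-seq, 3.16 against DroNc-seq and 3.24 against healthy 10x nuclei, while the median of all measured genes was -0.93, -0.92 and -0.80. The 3 comparisons share the Drop-seq library. With TMM scaling, which centres most genes near 0, the family medians were 3.20, 4.18 and 4.33.

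Members kept close to one another. Among members with at least 100 counts the log2 ratios from the 25th to the 75th percentile spanned 0.75 against sNucDrop-seq, 0.76 against DroNc-seq and 1.17 against healthy 10x nuclei, where for all genes of that depth it spanned 2.67, 2.89 and 3.22. Small subunit members had medians of 2.35, 3.24 and 3.38 and large subunit members 1.99, 3.08 and 3.09, so the small subunit was slightly higher in each. A member was said to depart where its whole interval lay at least 1 log2 unit from the family median. By that rule 3 of 79 members departed against sNucDrop-seq, 4 of 77 against DroNc-seq and 5 of 77 against healthy 10x nuclei. The like rule around the median of all genes was met by 39.1%, 42.6% and 44.2% of all measured genes.

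Rpl10a, a protein of the stalk by which the large subunit releases spent tRNA, was the only member to depart from the family in all 3 comparisons. It stood at 91.8 CPM in proximal tubule Drop-seq cells, against 64.3, 33.8 and 71.6 CPM in sNucDrop-seq, DroNc-seq and healthy 10x nuclei. Cells were thus nearer to nuclei than the median member, which was 4.39, 8.93 and 9.42-fold higher in cells. The log2 ratios were 0.51 (0.27 to 0.76), 1.44 (1.14 to 1.75) and 0.36 (0.03 to 0.71), which placed it 1.62, 1.72 and 2.88 below the family median. The gene lies on chromosome 17 (28328471 to 28331033, plus strand, GENCODE M21 on GRCm38), and an unnamed gene model, CT025652.2, overlaps it on the opposite strand.

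Rpl23a, a protein at the exit of the tunnel through which the new peptide leaves the ribosome, gave few UMIs in every library. Its proximal tubule counts were 68 in Drop-seq cells (11.5 CPM), against 32 for sNucDrop-seq (11.1 CPM), 33 for DroNc-seq nuclei (9.96 CPM) and 3 for healthy 10x nuclei (2.53 CPM). It thus stood at the same level in cells and in the first pair of nucleus libraries. Its log2 ratio was 0.05 (-0.57 to 0.71) against sNucDrop-seq and 0.21 (-0.41 to 0.86) against DroNc-seq, 2.08 and 2.95 below the family median. Against healthy 10x nuclei the interval, 0.58 to 4.50, was too wide to call. Rpl23a (chromosome 11, 78180932 to 78183584, minus strand) holds 3 snoRNA genes, has 14 named pseudogenes in the annotation and is overlapped by Tlcd1 on the opposite strand. Reads that match a pseudogene as well can be lost or split, and no source used here says whether the counting used strand. Of the other departing members, Rpl36 has 9 named pseudogenes, Rpl28 4, Rpl10a 3, Rpl35 and Rplp0 1 each, and Rpl41 and Rps27l 0. Members that did not depart have between 0 and 24. Departure was not tested against this number.

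Rpl35, another protein of the tunnel exit, stood at 69.5 CPM in Drop-seq cells, against 44.8, 15.7 and 31.2 CPM in sNucDrop-seq, DroNc-seq and healthy 10x nuclei. Its log2 ratio was 0.63 (0.34 to 0.93) against sNucDrop-seq and 1.16 (0.67 to 1.69) against healthy 10x nuclei, 1.50 and 2.08 below the family median. Against DroNc-seq it was 2.15 (1.73 to 2.59), which fell short of a departure. The gene (chromosome 2, 39001580 to 39005624, minus strand) is overlapped on the opposite strand by Wdr38 and Arpc5l, and reads of such partners cannot be told apart without strand.

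Another 3 large subunit members departed against healthy 10x nuclei alone. Rpl28, which animal ribosomes have and budding yeast ribosomes lack, stood at 85.3 CPM in Drop-seq cells, against 30.9, 13.3 and 27.8 CPM in sNucDrop-seq, DroNc-seq and healthy 10x nuclei. Rpl41 stood at 377 CPM in Drop-seq cells, against 161, 68.5 and 120 CPM in the same libraries. Rpl36 stood at 239 CPM in Drop-seq cells, against 84.8, 40.8 and 72.4 CPM. The log2 ratios over healthy 10x nuclei were 1.62 (1.11 to 2.17) for Rpl28, 1.66 (1.41 to 1.91) for Rpl41 and 1.72 (1.41 to 2.05) for Rpl36. All 3 were thus higher in cells, but by less than the family.

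Departures upward were fewer. Rplp0, the base of the stalk that recruits elongation factors, stood at 445 CPM in Drop-seq cells, against 58, 19.3 and 29.5 CPM in sNucDrop-seq, DroNc-seq and healthy 10x nuclei. Rps27l, the paralogue of Rps27 that p53 can induce, stood at 508 CPM in Drop-seq cells, against 58.7, 19.9 and 17.7 CPM. Over DroNc-seq their log2 ratios were 4.53 (4.17 to 4.91) and 4.67 (4.32 to 5.05), 1.37 and 1.51 above the family median. Against the other healthy nucleus libraries both stood above the family median by less than the rule asks or with too wide an interval: Rplp0 by 0.81 and 0.68, and Rps27l by 0.98 and 1.61. Rps27 itself, at 243 CPM in Drop-seq cells against 67.4, 26.9 and 48 CPM, lay 0.28 below the family median over sNucDrop-seq, 0.02 above it over DroNc-seq and 0.90 below it over healthy 10x nuclei. Rps27l thus had more UMIs than Rps27 in cells and fewer in each healthy nucleus library. The intervals of their levels overlapped in sNucDrop-seq and DroNc-seq, and lay apart in healthy 10x nuclei.

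**Figure D2:**
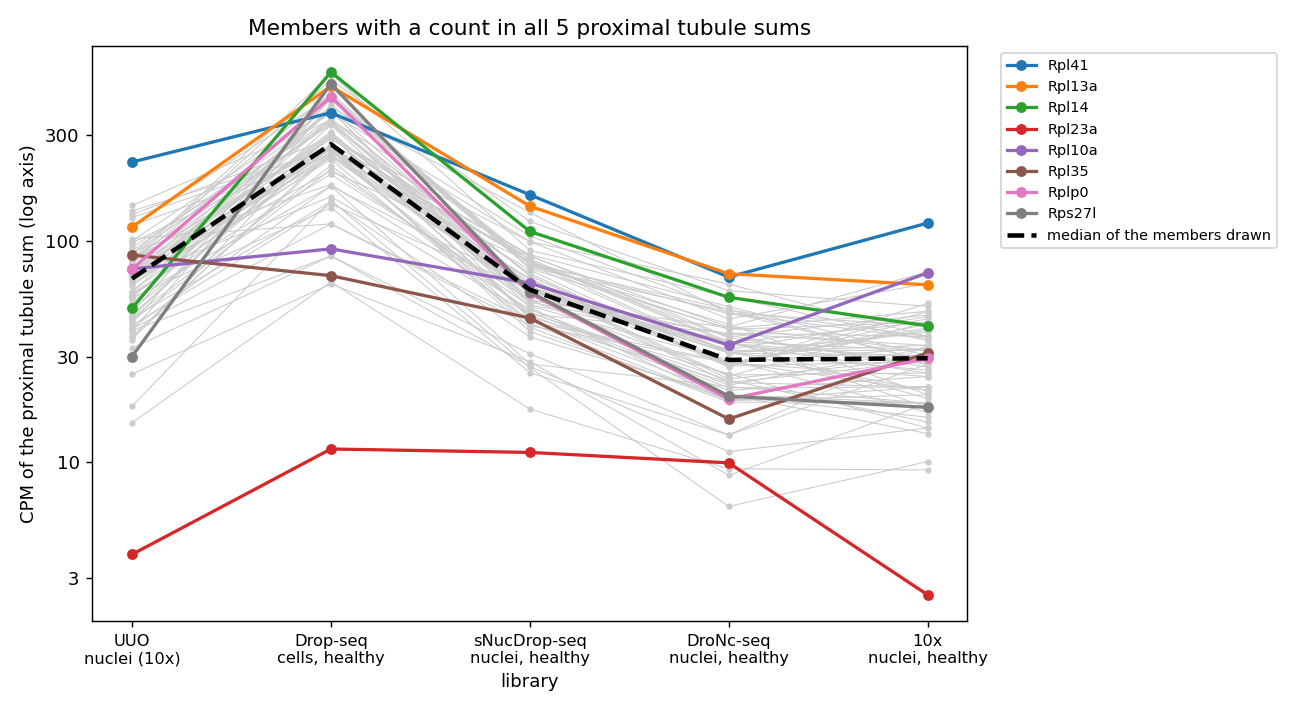
Level of each of the 77 members with a count in all 5 proximal tubule sums (vertical log axis, CPM) by library (horizontal axis), with 8 members in colour and the median of the members drawn dashed. Most lines rise together in Drop-seq cells, but between Drop-seq cells and sNucDrop-seq nuclei those of Rpl10a, Rpl35 and Rpl23a differ less than the dashed line, and those of Rplp0 and Rps27l differ more.

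The same members were read in the barcodes outside the proximal tubule, which are other barcodes of the same libraries. There Rpl10a departed in all 3 comparisons again, at 81.9 CPM in Drop-seq cells against 61.1, 37.6 and 64.2 CPM in sNucDrop-seq, DroNc-seq and healthy 10x nuclei. Rpl23a also departed in all 3, at 14.3 CPM in Drop-seq cells against 17.7, 20.8 and 10.2 CPM. Rpl35, Rpl28 and Rpl41 departed downward against healthy 10x nuclei as in the proximal tubule. Rpl10 departed downward there too, as did Rpsa against DroNc-seq, and Rpl22 departed upward at 392 CPM in Drop-seq cells against 13.6 CPM in healthy 10x nuclei. Rplp0 and Rps27l did not depart outside the proximal tubule, and neither did Rpl36 in cells over healthy 10x nuclei.

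UUO nuclei were set against each healthy nucleus library in the same way, and the size of the difference depended on that library. Against healthy 10x nuclei, the library made on the same system, at least 2-fold higher in UUO were 41 of 76 members (14.6% of all measured genes) and 0 were 2-fold lower (20.7% of all genes). Against DroNc-seq 41 of 77 were 2-fold higher (19.8% of all genes) and 1 was lower (29.7%). Against sNucDrop-seq only 4 of 77 were 2-fold higher (20% of all genes) and 3 were lower (33.5%). The median log2 ratio of the members, UUO over healthy, was 1.04 against healthy 10x, 1.11 against DroNc-seq and 0.07 against sNucDrop-seq, beside medians of all genes of -0.10, -0.25 and -0.34. With TMM scaling the family medians were 1.22, 1.39 and 0.45.

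The interval of a single member lay above 0 for 66 of 76 members against healthy 10x nuclei (24.5% of all measured genes) and for 70 of 77 against DroNc-seq (30.4%). It lay below 0 for 0 members against healthy 10x (29.8% of all genes) and for 1 against DroNc-seq (41.5%). Against sNucDrop-seq it lay above 0 for 25 of 77 members (29.2% of all genes) and below 0 for 17 (44.6%), so the share above 0 was near that of all genes there. Platform, sex-linked transcripts and condition differ together between some of these libraries and cannot be told apart. Among members with at least 100 counts the log2 ratios from the 25th to the 75th percentile spanned 0.60, 0.92 and 0.68 against healthy 10x, DroNc-seq and sNucDrop-seq, where for all genes of that depth it spanned 1.29, 1.89 and 2.00. Few members departed from the family: 1 of 76 against healthy 10x, 1 of 77 against DroNc-seq and 0 of 77 against sNucDrop-seq. The like rule around the median of all genes was met by 16.1%, 28.9% and 31.8% of all measured genes.

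Rpl36, a small protein of the large subunit, was the member that departed against healthy 10x nuclei. It stood at 56.9 CPM (207 counts) in UUO proximal tubule, against 72.4 CPM (86 counts) in healthy 10x, 40.8 CPM in DroNc-seq and 84.8 CPM in sNucDrop-seq. Its log2 ratio of -0.35 (-0.72 to 0.03) over healthy 10x lay 1.39 below the family median, and its interval includes no change. Over DroNc-seq and sNucDrop-seq it lay 0.63 and 0.65 below the family median. In Drop-seq cells, too, Rpl36 departed against healthy 10x alone, 1.51 below the family median. Both departures thus share the healthy 10x library, and its part in them was not tested. Outside the proximal tubule Rpl36 departed in UUO against healthy 10x again, at 85.8 CPM in UUO against 77.9 CPM. With barcodes above 3 times their class median of UMIs left out, 0 members departed in the proximal tubule against healthy 10x. Rpl36 (chromosome 17, 56613416 to 56614243, plus strand) has 9 named pseudogenes, and their part in its departure was not tested.

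Rpl23a departed against DroNc-seq, at 3.85 CPM (14 counts) in UUO nuclei against 9.96 CPM (33 counts) in DroNc-seq. It was at 11.1 CPM in sNucDrop-seq and at 2.53 CPM (3 counts) in healthy 10x nuclei, where too few counts were left to measure it. Its log2 ratio was -1.37 (-2.39 to -0.43) over DroNc-seq and -1.53 (-2.55 to -0.58) over sNucDrop-seq. UUO nuclei thus lay below both of these libraries. Outside the proximal tubule it was at 3.44 CPM in UUO nuclei, against 10.2, 20.8 and 17.7 CPM for healthy 10x, DroNc-seq and sNucDrop-seq, and departed downward against each.

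**Figure D3:**
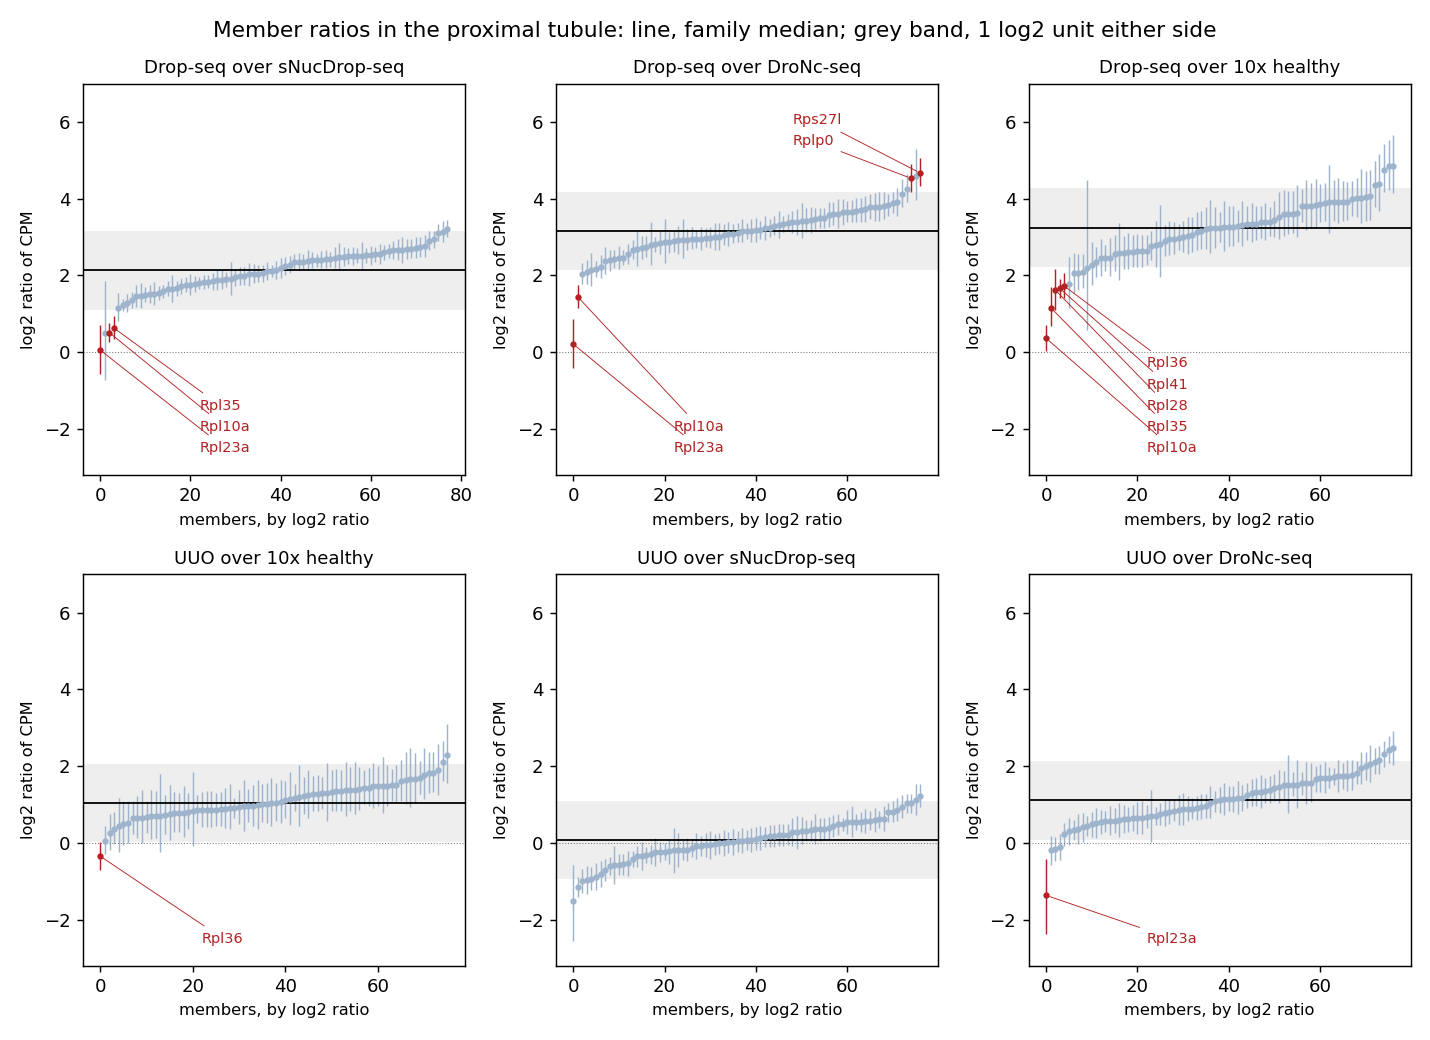
Log2 ratio of each measured member in the proximal tubule (vertical axis) with its exact 95% counting interval, members ordered along the horizontal axis, in 6 comparisons. The black line is the family median, between 0.07 and 3.24, the grey band reaches 1 log2 unit either side, and departing members are red and named; Rps4l, without a count in sNucDrop-seq, is not drawn.

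Members that did not depart give the family's picture by role, in CPM of the proximal tubule in UUO nuclei and Drop-seq cells against sNucDrop-seq, DroNc-seq and healthy 10x nuclei. The lateral stalk proteins were at 99.6 and 399 against 134, 47.1 and 41.3 for Rplp1, and at 93.5 and 342 against 64.3, 28.1 and 32.8 for Rplp2. Rpl5 was at 80.3 and 286 against 99, 63.7 and 37. Rpl11, its partner in the particle that carries 5S RNA and can bind Mdm2, was at 75.1 and 452 against 74.7, 40.2 and 48. Rpl5 lay 0.60, 0.99 and 0.29 below the family median in cells over sNucDrop-seq, DroNc-seq and healthy 10x. In the same comparisons Rpl11 lay 0.46 and 0.33 above it and 0.00 from it.

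In the small subunit, Rps6, the target of S6 kinase, was at 39.9 CPM in UUO nuclei and 119 CPM in Drop-seq cells, against 41.4, 28.1 and 24.4 CPM in sNucDrop-seq, DroNc-seq and healthy 10x nuclei. Rps3, at the channel where mRNA enters, was at 65.7 and 384 CPM against 51.4, 34.4 and 25.3 CPM. Rpsa, also known as the laminin receptor, was at 41.5 and 146 CPM against 60.1, 31.4 and 21.1 CPM. Rps6 and Rpsa lay below the family median in every comparison of cells with nuclei, by 0.61, 1.08 and 0.95 and by 0.85, 0.94 and 0.44, and Rps3 above it by 0.77, 0.32 and 0.69. Rps27a, made as a fusion with ubiquitin, was at 87.2 and 461 CPM against 78.5, 48.9 and 28.6 CPM. The 4 members on the X chromosome include Rps4x, at 45.4 and 298 CPM against 45.2, 25.1 and 14.3 CPM, and Rpl10, which joins late in assembly, at 67.4 and 158 CPM against 46.6, 38.3 and 37 CPM. Rps4x lay above and Rpl10 below the family median in all 3 comparisons of cells with nuclei, so the X-linked members shown did not move as 1 group.

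Other large subunit members were spread around the median. Rpl3, near the peptidyl transferase centre, lay within 0.41 of the family median in each comparison of cells with nuclei, and Rpl39 of the exit tunnel lay 0.55, 0.65 and 0.37 above it. Rpl38, needed for patterning of the mouse skeleton, lay 0.22 and 0.53 above it against sNucDrop-seq and DroNc-seq and 0.24 below it against healthy 10x. Rpl22, which also binds other RNAs, was at 39.1 CPM in UUO nuclei, against 78.2, 42 and 20.2 CPM in sNucDrop-seq, DroNc-seq and healthy 10x. It and Rpl14 lay 1.07 and 1.22 below the family median in UUO over sNucDrop-seq, and 1.22 and 1.28 below it over DroNc-seq, with intervals that reach inside 1 unit. Upward, Rpl35 lay 1.34, Rpl27a 1.20, Rps27 1.01 and Rpl36a 0.94 above the family median in UUO over DroNc-seq, also without departing.

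The members with the most UMIs by the mean of the 5 proximal tubule sums were Rpl41 (190 CPM), Rpl13a (178), Rps2 (169), Rpl14 (166), Rpl23 (166), Rps14 (145), Rplp1 (144) and Rps27a (141). The measured members with the fewest were Rpl12 (34.1 CPM), Rpl29 (28.9), Rpl15 (23.3), Rpl23a (7.8) and Rpl3l (1.56), a paralogue of Rpl3 known from muscle. CPM here counts the UMIs assigned to a gene, so this is an order of UMIs and not of transcripts in the cell. Rpl3l had 4 counts in UUO proximal tubule and 23 in Drop-seq cells, against 8 in sNucDrop-seq, and was listed at 0 in the other healthy nucleus libraries. Rpl10l had 1 count in Drop-seq cells and 0 in the 4 nucleus libraries, and Rpl39l had 0 counts in UUO proximal tubule. The annotation names 2 members as pseudogenes: Rpl6l, at 17.9 CPM in UUO nuclei and 152 CPM in Drop-seq cells against 26.8, 6.34 and 10.1 CPM, and Rps4l, with 64 counts in Drop-seq proximal tubule against 0 in that of sNucDrop-seq, and listed at 0 in the other healthy nucleus libraries.

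The difference between UUO and healthy nuclei was then followed through the other classes with at least 20 barcodes in both libraries. The family share was higher in UUO in every class against each healthy nucleus library when all barcodes were used. Over barcodes of at least 1000 UMIs, endothelium turned round against sNucDrop-seq (0.679% in UUO against 0.789%), and the interval of descending limb included 0. Against healthy 10x nuclei the fold ran from 2.12 in principal cells to 3.23 in distal convoluted tubule over 9 classes, with 2.13 in proximal tubule. In distal convoluted tubule the share was 0.818% in UUO against 0.253% in healthy 10x, a log2 ratio of 1.69 (1.57 to 1.81). Intercalated cells (3.14-fold) and connecting tubule (3.11-fold) were close to it, and ascending limb stood at 2.8-fold. Against sNucDrop-seq the fold ran from 1.08 in proximal tubule to 2.18 in macrophages, and distal convoluted tubule had 2.06. Against DroNc-seq it ran from 2.18 in proximal tubule to 4.18 in distal convoluted tubule. The proximal tubule was thus at or near the low end of the UUO difference whichever healthy library it was set against. Over barcodes of at least 1000 UMIs the folds against healthy 10x were 2.26 in proximal tubule and 2.66 in distal convoluted tubule, so the gap between these segments was smaller.

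Whole cells stood above nuclei in each class that could be compared. Against sNucDrop-seq the fold of the family share ran from 3.27 in endothelium to 5.36 in distal convoluted tubule, against DroNc-seq from 5.39 in macrophages to 10.9 in distal convoluted tubule, and against healthy 10x from 5.27 in endothelium to 8.93 in proximal tubule. The classes with the lowest folds, endothelium and macrophages, had 20 Drop-seq cells each. Red blood cell markers stood at 6732 CPM in the ascending limb class of Drop-seq cells and at 182 CPM in its proximal tubule, against at most 7.85 CPM in the proximal tubule of a healthy nucleus library, and their part in the share was not tested.

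**Figure D4:**
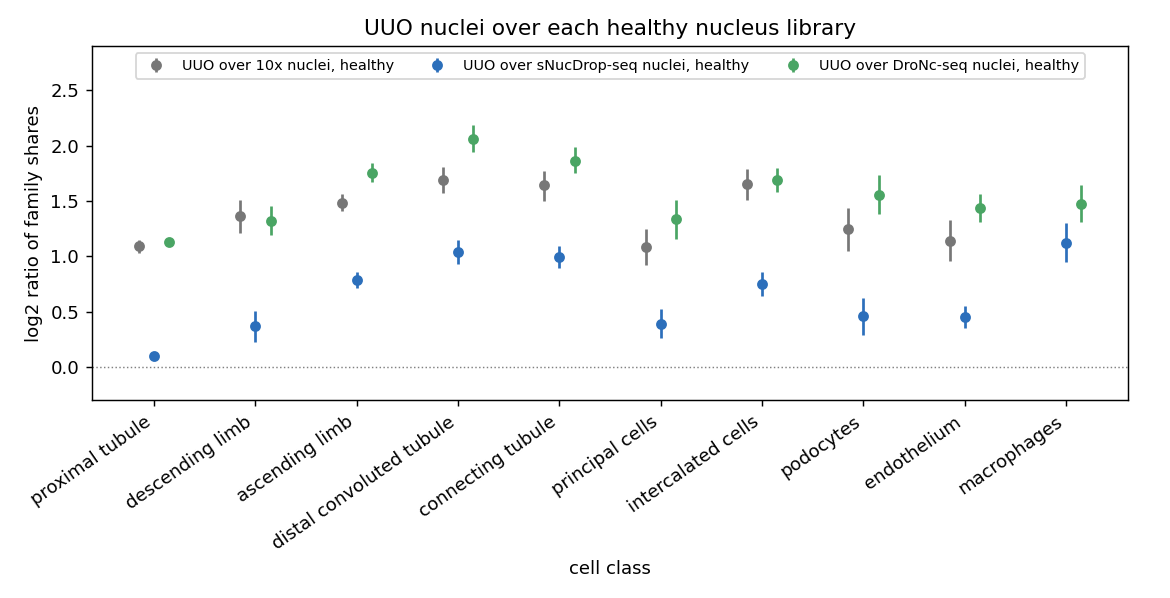
Log2 ratio of the family share of UMIs, UUO nuclei over each healthy nucleus library (vertical axis), by cell class (horizontal axis), with exact 95% counting intervals. Against sNucDrop-seq the ratio is 0.10 in proximal tubule and 1.04 in distal convoluted tubule, and against healthy 10x it is 1.09 and 1.69; endothelium against sNucDrop-seq falls below 0 when barcodes under 1000 UMIs are left out.

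The makeup of the family was then compared from class to class within a library. A member's share of family UMIs in 1 class was set against its share in the other barcodes of the library, and a difference was counted where the whole interval lay at least 0.5 log2 units from 0. That was met by 1 of 994 pairs of member and class in UUO nuclei and 5 of 623 in Drop-seq cells, against 2 of 842, 2 of 836 and 1 of 675 for sNucDrop-seq, DroNc-seq and healthy 10x nuclei. For all genes, by their share of all UMIs, the same rule was met by 7.8% of pairs in UUO nuclei and 9.05% in Drop-seq cells, against 7.22%, 9.68% and 9.57%. Depth limits what the rule can find, since the median pair of member and class held 28 counts in UUO and 29 in Drop-seq, against 11, 8 and 7. Of the pairs with at least 100 counts in the class, 0 of 119 in UUO and 0 of 118 in Drop-seq met the rule, against 0 of 69, 0 of 38 and 0 of 1. The share of all genes given above mixes depths and was not taken at that depth, so these counts have no like share beside them. A smaller difference in makeup was not detectable at this depth. Proximal tubule markers were also counted in other classes, and the part of such RNA in the likeness of the classes was not tested. The UUO pair was Rpl27a in Fib.1, at 1.33% of family UMIs there (34 counts) against 2.7% in the other UUO nuclei. In Drop-seq cells Rps27l made up 1.08% of family UMIs in ascending limb (53 counts) against 2.23% in the other cells, and Rpl7 2.71% in principal cells (47 counts) against 1.23%.

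Departure was set against features of the gene that the rule does not use, over 75 to 77 protein-coding members, as a description across genes that share their libraries. The members are short genes, with a median length of 3368 bases against 22905 for protein-coding genes of the tables. Spearman's rho between departure and gene length was between -0.20 and 0.24 over the 6 comparisons, with transcript length between -0.17 and 0.13, and with the number of exons between -0.30 and 0.19. The 28 members with a snoRNA gene inside had a median departure of -0.14 in cells over sNucDrop-seq against 0.12 in the other 49, but of -0.00 against -0.02 over DroNc-seq and -0.04 against 0.01 over healthy 10x. In UUO over DroNc-seq they had -0.22 against 0.03. Members that overlap another gene had median departures of -0.09, -0.30 and 0.01 in cells over the 3 nucleus libraries, against 0.21, 0.07 and -0.01 for those that do not. Departures in pairs of comparisons with no library in common were weakly related at most, with Spearman's rho of 0.16, -0.03, 0.12, 0.05, -0.29 and -0.28 over 76 or 77 members.

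Other genes of translation were counted beside the family, by lists chosen with earlier results of these data known. In proximal tubule cells over sNucDrop-seq, 7 of 7 measured elongation factors were at least 2-fold higher, as were 17 of 30 initiation factors and 60 of 75 mitochondrial ribosomal proteins, beside the 17.9% of all genes given above. Eef1a1, which brings tRNA to the ribosome, stood at 1301 CPM in Drop-seq cells against 164 CPM in sNucDrop-seq, and Rack1, a protein of the small subunit outside the rule, at 345 against 95.9 CPM. Of 33 ribosome biogenesis genes 6 were higher and 9 lower, and of 10 regulators of ribosomal protein mRNA 0 were higher and 8 lower, where 48.7% of all measured genes were at least 2-fold lower. Of these regulators Mtor stood at 75.5 CPM in cells against 544 CPM in sNucDrop-seq.

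In UUO over healthy 10x proximal tubule the median of each of 4 other lists lay nearer 0 than that of the family. At least 2-fold higher in UUO were 1 of 7 elongation factors, 6 of 29 initiation factors, 4 of 29 ribosome biogenesis genes and 6 of 67 mitochondrial ribosomal proteins, where 14.6% of all genes were. At least 2-fold lower were 0, 0, 2 and 6, where 20.7% of all genes were, so several of these counts are near the share of all genes or under it. Their median log2 ratios were 0.24, 0.34, 0.06 and -0.24, beside the 1.04 of the family. Over sNucDrop-seq the same medians were -0.52, -0.26, -0.58 and -0.94, beside 0.07 for the family, and 31 of 73 mitochondrial ribosomal proteins were 2-fold lower (33.5% of all genes). There the lists thus lay further from 0 than the family. Eef1a1 stood at 98.8 CPM in UUO nuclei against 73.3 CPM in healthy 10x, and Eef2, which moves the ribosome along the mRNA, at 36.9 against 45.5 CPM. Of 11 regulators of ribosomal protein mRNA 2 were 2-fold higher and 2 lower in UUO over healthy 10x, with a median of -0.24. Among the 4 with the highest levels, Mtor stood at 83.9 CPM in UUO nuclei against 370 CPM in healthy 10x, a log2 ratio of -2.14 (-2.35 to -1.93), and Rheb, its activator, at 163 against 63.2 CPM. Rptor, a partner of Mtor, stood at 207 CPM in UUO nuclei against 243 CPM in healthy 10x, and Rps6kb1, the S6 kinase, at 148 against 116 CPM.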

How the data were processed

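UMI counts per gene and barcode were read from 2 deposited tables, 1 of the 4 healthy libraries and 1 of the UUO library. Per the deposited readme the authors made them as raw counts with zUMIs, with mm10 and STAR 2.5.3a named in the submitters' processing notes. No source used here gives the annotation, the filters on barcodes and genes, or whether introns and strand entered the counting. In DroNc-seq and healthy 10x no counted gene was found in fewer than 6 and 4 barcodes, so a gene at 0 there is called listed at 0. All barcodes of the annotation were kept and no doublet caller was run. Between 43 and 186 barcodes per library held over 3 times their class median of UMIs, as doublets may, and an alternative left them out. 0 columns of values belonged to no sample.

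For each class of a library the counts were summed and scaled to counts per 1000000 of its UMIs (CPM). Shares have exact Clopper-Pearson intervals and ratios of 2 sums exact intervals conditional on their total, at 95%. A member departed where its interval lay at least 1 log2 unit from the median of the measured members. The interval and the rule were tested on simulated data drawn with counting error only, as the interval assumes. That test could not show how they behave with spread between barcodes or libraries. Gene places came from GENCODE M21 and starts from RefSeq (GRCm38.p6), and all 81 members matched GENCODE. Members and lists were chosen with earlier results of these data known. Members named are those that departed, the 8 with the most and 5 with the fewest UMIs, and a list chosen by role. Members beyond that rule (Rpl7 and Rpl27a, named for class shares or ratios) were named after their values were seen. The tools were Python 3.11.15, scipy 1.17.1, numpy 2.4.6, matplotlib 3.10.9 and pandas 2.3.3, and R 4.3.3 with edgeR 4.0.16 (TMM) and DESeq2 1.42.0 (median of ratios) for alternative scalings. Other alternatives were totals without some genes, other minimums of counts or UMIs, means over barcodes, S3 labels, all barcodes and barcodes outside the proximal tubule.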

Additional observations from a re-analysis of the deposited data

How the results depend on the processing

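With 1 library per group no replicate could be left out, and no paired analysis was possible because no comparison came from a test. Values are given in the order UUO, Drop-seq, sNucDrop-seq, DroNc-seq and healthy 10x where 5 are listed. In every alternative tried the family share of UMIs was highest in Drop-seq, then in UUO, then in sNucDrop-seq, while DroNc-seq and healthy 10x changed places without Malat1 and with at least 1000 UMIs. Without Malat1 the shares were 0.743%, 2.24%, 0.558%, 0.298% and 0.297%. As a mean over barcodes the shares were 0.837%, 2.23%, 0.55%, 0.266% and 0.321%. With barcodes of at least 1000 UMIs they were 0.558%, 2.21%, 0.461%, 0.248% and 0.242%. Without barcodes above 3 class medians they were 0.69%, 2.22%, 0.511%, 0.257% and 0.274%. Without mitochondrially encoded genes the Drop-seq share was 2.92%, and without members annotated as pseudogenes, chosen after seeing the data, 2.2%.

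Family medians kept their sign in every alternative tried. For cells over sNucDrop-seq, DroNc-seq and healthy 10x they were 3.20, 4.18 and 4.33 with TMM, 3.19, 4.21 and 4.27 with the median of ratios, 2.56, 3.59 and 3.67 with totals without mitochondrial and ribosomal protein genes, and 2.01, 3.06 and 2.95 as a mean of CPM over barcodes. With at least 1000 UMIs they were 2.30 over sNucDrop-seq and 3.35 over healthy 10x, and with S3 labels 2.85 over DroNc-seq and 3.38 over healthy 10x. For UUO over healthy 10x, sNucDrop-seq and DroNc-seq they were 1.22, 0.45 and 1.39 with TMM, 1.23, 0.46 and 1.44 with the median of ratios, and 1.17, 0.14 and 1.04 with at least 1000 UMIs. Without high barcodes they were 0.11 over sNucDrop-seq and 1.05 over DroNc-seq, with S3 labels 1.39 over healthy 10x and 0.62 over DroNc-seq, and as a mean over barcodes 0.83 over healthy 10x.

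Counts of departing members grew with a departure of 0.5, since that rule asks for less. They were 13 of 79, 12 of 77 and 13 of 77 for cells over sNucDrop-seq, DroNc-seq and healthy 10x. For UUO over healthy 10x, sNucDrop-seq and DroNc-seq they were 4 of 76, 13 of 77 and 12 of 77. The share of all genes was not taken under any alternative given here, so these counts of departing members have no like share beside them. With S3 labels 2 departed in cells over DroNc-seq. With all barcodes 9 departed in cells over healthy 10x, and 2, 1 and 3 in UUO over healthy 10x, sNucDrop-seq and DroNc-seq. Outside the proximal tubule 2 departed in UUO over healthy 10x and 1 over sNucDrop-seq. Without high barcodes 0 departed in UUO over healthy 10x and 1 over sNucDrop-seq. In UUO over DroNc-seq 0 departed with at least 100 counts and 2 with at least 1000 UMIs. The cause was not tested. The UUO proximal tubule without its Dediff. PT and Prolif. PT labels, also chosen after seeing the data, had the same medians. By class, the share at 1000 UMIs or more lay outside its interval for 17 of 47 classes and libraries, and UUO endothelium over sNucDrop-seq had a log2 ratio of -0.22 there, against 0.45 with all barcodes. Healthy 10x proximal tubule limits the member values most, with 2947 family UMIs over all members.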

Other observations

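Rows named as pseudogenes of members lie outside the rule and were summed on their own. There were 14 of them among the genes of the UUO nuclei and 25 among those of the healthy libraries. They made up 2.39% of the UMIs of members and pseudogene rows together in UUO nuclei and 4.67% in Drop-seq cells, against 4.01%, 3.25% and 3.02% in sNucDrop-seq, DroNc-seq and healthy 10x nuclei. Rpl10-ps3 had the most counts of these rows in UUO (317), DroNc-seq (144) and healthy 10x nuclei (56). Rps3a1, which encodes a small subunit protein and whose symbol the rule leaves out, stood at 68.5 CPM in proximal tubule UUO nuclei and 361 CPM in Drop-seq cells, against 78.5, 47.4 and 27.8 CPM in sNucDrop-seq, DroNc-seq and healthy 10x nuclei.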
